A study of Sus scrofa with 20 samples.

Results

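A set of 2603 sequence tags was described here, all of which hold AATAAA, the canonical polyadenylation hexamer, in the 17 bases that follow the NlaIII site. A tag counted as a member if the hexamer stood anywhere in those 17 bases and the tag reached at least 20 copies summed over the 20 libraries. The members were 2603 of 170586 tags with at least 20 copies (1.53%), out of 801159 distinct tags in all. A further 10055 tags held the hexamer but did not reach 20 copies. At the boundary, 268 members had 20 to 24 copies and 426 tags with the hexamer had 15 to 19.

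The libraries came from longissimus muscle of 2 pig breeds, Landrace (LR), a lean and fast-growing breed, and Lantang (LT), a Chinese breed with slow-growing muscle and more fat. Muscle was taken at 35, 49, 63, 77 and 91 days post coitus (dpc) and at 2, 28, 90, 120 and 180 days post natal (dpn), from purebred litters of sows inseminated with semen of their own breed. Per the study's methods all animals were male, embryos or fetuses before birth and boars after it, and the boars were castrated after the first 2 weeks, so that the animals from 28 dpn onwards differed from the younger ones in this as well as in age. Each library of digital gene expression (DGE) tags was made from 1 pool of equal amounts of RNA of 3 animals, with a single pool at every stage of a breed. In the absence of replicates a p-value measures only the spread between libraries of different stages. The labelled tissue was not checked against marker genes, since the tags were not paired with genes here.

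The polyadenylation signal is the short sequence near the end of a messenger RNA at which a protein complex cuts the transcript a little further downstream and adds the poly(A) tail. AATAAA is its most common form in mammals, and ATTAAA is the most common variant. In DGE the cDNA is held by its poly(A) end, cut at CATG by NlaIII, and sequenced for a short stretch next to the cut nearest to that end. A tag that holds the hexamer can therefore come from a transcript whose last CATG lies just before its signal, but the letters alone do not show that the signal is used. A high tag count reflects both how much of a transcript is present and how completely and where the cDNA was cut.

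The members on which the results turn are printed below from 5′ to 3′, CATG first, with the hexamer in capitals and all other bases in lower case. Names run from P1 downwards by the mean level in the 18 libraries other than LR at 120 and 180 dpn. The first 8 were the most abundant members.
P1: catgtaccatcAATAAAgtac
P2: catgtgAATAAAgttgtcaac
P3: catgttcaAATAAAcaggagg
P4: catgatctgccgttAATAAAg
P5: catgcAATAAAccttgtcttc
P6: catgctcgttctgaAATAAAg
P7: catgcttattaaAATAAAaac
P8: catggccttccAATAAAaaat
The next 5 are the other tags among the 10 with the largest rise in LR at 120 and 180 dpn.
P11: catgcttactaaAATAAAaac
P12: catgtgccaagaaAATAAAaa
P14: catgcagtggagaAATAAAgt
P20: catgcAATAAActgaaaagag
P23: catgaaAATAAAcatcctcgg
The following 5 were found almost wholly in one breed.
P27: catgtaacAATAAAgtctgtt
P68: catgttctAATAAActtctac
P113: catgAATAAAttcgttcaatg
P175: catgAATAAAttcgttcaacg
P454: catgaaAATAAAagtaaaact
The last group holds, beside P5, the tags with the largest called change between prenatal and postnatal libraries among those whose periods did not overlap.
P72: catgtaccatcAATAAAgaac
P313: catgtaccaccAATAAAgtac
P441: catgtaccatcAATAAAgcta
P221: catgagcaAATAAAtctgttt
P466: catgaagcaacAATAAAatta

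The members made up 3543053 of 76905016 clean tags (4.61%), and a few of them carried most of this. P1 alone held 34.5% of all member copies, the first 5 tags by copies 55.7% and the first 10 62.6%. The median member had 78 copies over all libraries, beside 66 for all tags with at least 20 copies, and 428 members were found in each of the 20 libraries. Members were rich in A, with a mean of 8.58 A in the 17 bases against 4.72 over all such tags, of which the hexamer itself supplied a part. P72 and P313 each differ from P1 at 1 base, and 392 members in all lay 1 base away from a tag with at least 20 times their copies. These neighbours carried 1.60% of the member copies.

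Levels are given as TPM, the copies found in every 1000000 clean tags. Library totals ran from 2157111 to 5322022 clean tags, so that 3 counts, taken as the smallest amount that counts as detected, stood for 0.564 to 1.39 TPM. Intervals of a single library are 95% Wilson intervals, and neither they nor these floors cover more than counting error, as PCR makes several copies of 1 molecule. LR at 120 and 180 dpn stood apart in a measure other than the hexamer. Tags whose 17 bases held another CATG, which complete cutting by NlaIII would not leave, made up 0.116% and 0.224% of their clean tags, beside 2.14% to 3.80% in the other 18 libraries. These 2 libraries, which were singled out with earlier results of the data known, were left out of the comparisons of periods and breeds and are described on their own.

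The share of clean tags that held the hexamer was low before birth and higher after it. In LR it was 2.14%, 3.61%, 3.75%, 3.83% and 3.26% from 35 to 91 dpc, and then 2.94%, 3.94% and 6.46% at 2, 28 and 90 dpn. In LT it was 1.97%, 1.86%, 2.35%, 2.14% and 2.22% from 35 to 91 dpc, and 3.44%, 6.74%, 3.11%, 6.76% and 5.07% from 2 to 180 dpn. All LT postnatal libraries lay above all LT prenatal ones, while in LR the 2 dpn library lay below 4 of the 5 prenatal ones. In LR at 120 and 180 dpn the share was 15.6% (interval 15.55% to 15.63%) and 14.7% (14.67% to 14.74%).

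**Figure D1:**
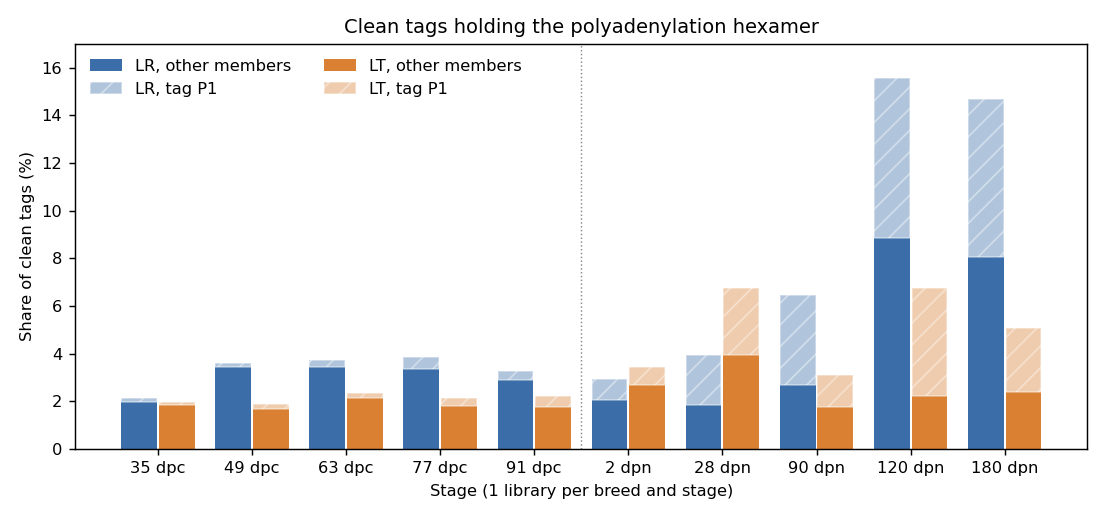
Share of clean tags (%) that hold the hexamer, by stage, with LR in blue and LT in orange. Each bar is 1 library without replicates, the solid part stands for all members but P1 and the hatched part for P1, and the dotted line marks birth. The bars of LR at 120 and 180 dpn reach 15.6% and 14.7%, and the highest of the other 18 reaches 6.76%.

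Over the 18 libraries the mean share was 2.71% ± 0.797 (SD, n = 10 libraries) before birth and 4.81% ± 1.66 (SD, n = 8) after it. The difference of 2.09 percentage points was larger than the spread between libraries, with p = 0.00222 in a 2-sided exact permutation test over 43758 assignments and 0.02 after Benjamini-Hochberg adjustment over the 27 permutation tests made. Within LT the difference was 2.91 points (exact permutation p = 0.00794, the smallest that 5 against 5 libraries allow, adjusted 0.0536). Within LR it was 1.13 points with the 3 libraries from 2 to 90 dpn (exact permutation p = 0.286, the smallest possible being 0.0179). On library sizes scaled by the trimmed mean of M-values (TMM), which sets the bulk of all tags level between libraries, the difference over the 18 libraries was 3.61 points (exact permutation p = 0.00032).

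One tag, P1, made nearly all of the net difference on library totals. It gained 20747 TPM between the prenatal and postnatal means, 99.1% of the net gain of 20932 TPM of all members. Without P1 the share of library totals was 2.43% ± 0.753 before birth and 2.45% ± 0.690 after it, a difference of 0.0184 points (exact permutation p = 0.957). The share without P1 is not given on TMM sizes, on which the difference of all members was larger, so the part of P1 holds for library totals only. P2 and P3 added 2555 and 1759 TPM, P5 lost 1303 TPM, and the remaining members together balanced them. Within LT the share without P1 was higher by 0.758 points after birth (exact permutation p = 0.0317, adjusted 0.107), and within LR it was lower by a mean difference of -0.823 points (exact permutation p = 0.107). P1 made 74.0% of the net gain within LT and 173% of that within LR, so the part of 99.1% joins opposite changes of the other members.

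Fewer different members were found after birth. A prenatal library held 1806 members on average (SD 122, n = 10) and a postnatal one 1403 (SD 241, n = 8), a difference of -403 (exact permutation p = 0.000434, adjusted 0.00586). At an equal depth of 2000000 clean tags, by rarefaction, the numbers were 1694 and 1333, and the difference of -362 gave an exact permutation p = 4.57e-05 (adjusted 0.00123). All distinct tags fell in number at the same time, so the members' share among them was 0.956% ± 0.163 before birth and 1.16% ± 0.271 after it (exact permutation p = 0.0713). More of the clean tags thus fell on fewer members, with P1 taking 4.48% to 20.9% of the member copies in prenatal libraries and 22.4% to 67.0% in the 8 postnatal ones.

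Tag by tag, the members that passed the low-count filter moved in both directions in about the same proportion as other tested tags. Of 2603 members, 666 passed edgeR's filter on low counts. The quasi-likelihood test, with breed as covariate and Benjamini-Hochberg adjustment over 37769 tags, called 142 of them higher after birth (21.3%, background 19.7% of all tested tags) and 138 higher before birth (20.7%, background 20.6%). The median log2 fold change, postnatal over prenatal, was -0.010 in the members and -0.068 over all tested tags. When libraries were scaled by their totals, without TMM, the median over all tags moved to -0.77 and that of the members to -0.72. The calls among members then became 65 higher after birth (background 9.43%) and 261 higher before birth (background 41.6%), so the balance of the directions rests on the scaling. Libraries that did not overlap between the periods were seen in 8 tested members that were higher in every postnatal library (1.20%, background 1.36%) and in 76 that were lower (11.4%, background 10.6%).

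P1 was the most abundant member in both periods and rose through development in both breeds. In LR it stood at 1584, 1615, 3311, 4834 and 3904 TPM from 35 to 91 dpc and at 8696.5, 20945 and 37990.2 TPM at 2, 28 and 90 dpn. In LT it stood at 1274, 1798, 2240.0, 3495 and 4632 TPM before birth and at 7709, 28048, 13546, 45238 and 26756 TPM from 2 to 180 dpn. Every postnatal library lay above every prenatal one, and the breeds did not separate. The log2 fold change was 3.88 (SE 0.56, edgeR adjusted p = 1.85e-05), and that between the breeds, LT over LR, was -0.34 (adjusted p = 0.623). Unless stated otherwise, log2 fold changes of single tags are those of edgeR on TMM sizes, while TPM is on library totals, so the 2 can differ.

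P2 and P6 rose from low levels at 35 dpc. P2 went from 67.1 to 4607 TPM at 77 dpc in LR and from 74.8 to 2327 TPM at 91 dpc in LT, and stood at 1328 to 8104 TPM in the 8 postnatal libraries. In LR it fell across birth, from 3851 TPM at 91 dpc to 1328 TPM at 2 dpn and 1864 TPM at 28 dpn. Its periods overlapped, and the log2 fold change of 2.37 (SE 0.72, edgeR adjusted p = 0.0126) lost its call without LR at 90 dpn (adjusted p = 0.0577) and on library totals without TMM (adjusted p = 0.0567). P6 went from 21.02 to 485 TPM in LR and from 22.3 to 256 TPM in LT between 35 and 91 dpc, and stood at 345 to 1505 TPM after birth, with a log2 fold change of 3.00 (SE 0.58, edgeR adjusted p = 0.000337). The lowest postnatal value of P6 lay under the highest prenatal one, so here too the periods overlapped.

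P3 changed less and P4 and P8 were not called. P3 was lowest at 35 dpc in both breeds (435 and 401 TPM), reached 1036 to 2657 TPM in the other prenatal libraries and 1430.2 to 7194 TPM after birth, with its highest value in LT at 28 dpn. Its log2 fold change was 1.92 (SE 0.48, edgeR adjusted p = 0.00327). P4 ranged from 647 to 2617 TPM before birth and from 511 to 1932 TPM after it, and P8 from 268 to 794 and from 165 to 895 TPM. The adjusted p-values of 0.724 for P4 and 0.891 for P8 leave their fold changes, 0.20 and -0.073 on the log2 scale with TMM, within the spread between libraries. In TPM, which is on library totals, the means before and after birth were 1410 and 926 for P4 and 578 and 333 for P8.

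P5 was found mainly before birth. In LR it stood at 424, 3440, 3037, 2467 and 1004 TPM from 35 to 91 dpc and at 48.8, 1.38 and 3.25 TPM at 2, 28 and 90 dpn. In LT it stood at 314, 679.7, 906, 652 and 255 TPM before birth and at 29.2, 3.90, 0.506, 0 and 33.1 TPM from 2 to 180 dpn. No postnatal library reached the lowest prenatal one, and the log2 fold change was -5.48 (SE 0.94, edgeR adjusted p = 0.00011). It was higher in LR at all 5 prenatal stages. The breed difference over 8 stages, LT over LR, was -1.42 on the log2 scale and was not called (adjusted p = 0.173), while over the 5 prenatal stages alone it was -1.79 (adjusted p = 0.0264).

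The other tags with a large fall after birth were scarcer. P221 stood at 2.02 to 122 TPM before birth, with the highest value in LR at 35 dpc, and at 0 to 0.679 TPM after it (log2 fold change -6.07, edgeR adjusted p = 2.34e-05). P466 stood at 5.15 to 12.999 TPM before birth and at 0 to 1.02 TPM after it (log2 fold change -4.33, edgeR adjusted p = 5.36e-06). In both the periods did not overlap, and the postnatal values were at or below the level of 3 counts.

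Among tags called higher after birth whose periods did not overlap, the largest log2 fold changes were those of P313, P72 and P441, which resemble P1. P313 and P72 each differ from P1 at 1 base, at position 6 (C6T from P313 to P1) and at position 15 (A15T from P72 to P1), counted from the first of the 17 bases. P441 differs from P1 at 3 bases. P72 rose from 3.07 to 15.4 TPM before birth to 27.0 to 208 TPM after it (log2 fold change 4.22, edgeR adjusted p = 1.93e-06), and its copies were 0.194% to 0.547% of those of P1 in each of the 18 libraries. P313 rose from 0 to 2.61 TPM to 4.30 to 60.7 TPM (log2 fold change 4.74, edgeR adjusted p = 5.17e-06). P441 rose from 0 to 3.52 TPM to 6.10 to 27.1 TPM (log2 fold change 4.04, edgeR adjusted p = 0.00013). Of the 142 members called higher after birth, 15 were 1 base away from P1 and 23 were 1 base away from some tag with at least 20 times their copies. A tag that follows a far more abundant neighbour may not be independent of it, and the part of P1 in their change was not tested.

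**Figure D2:**
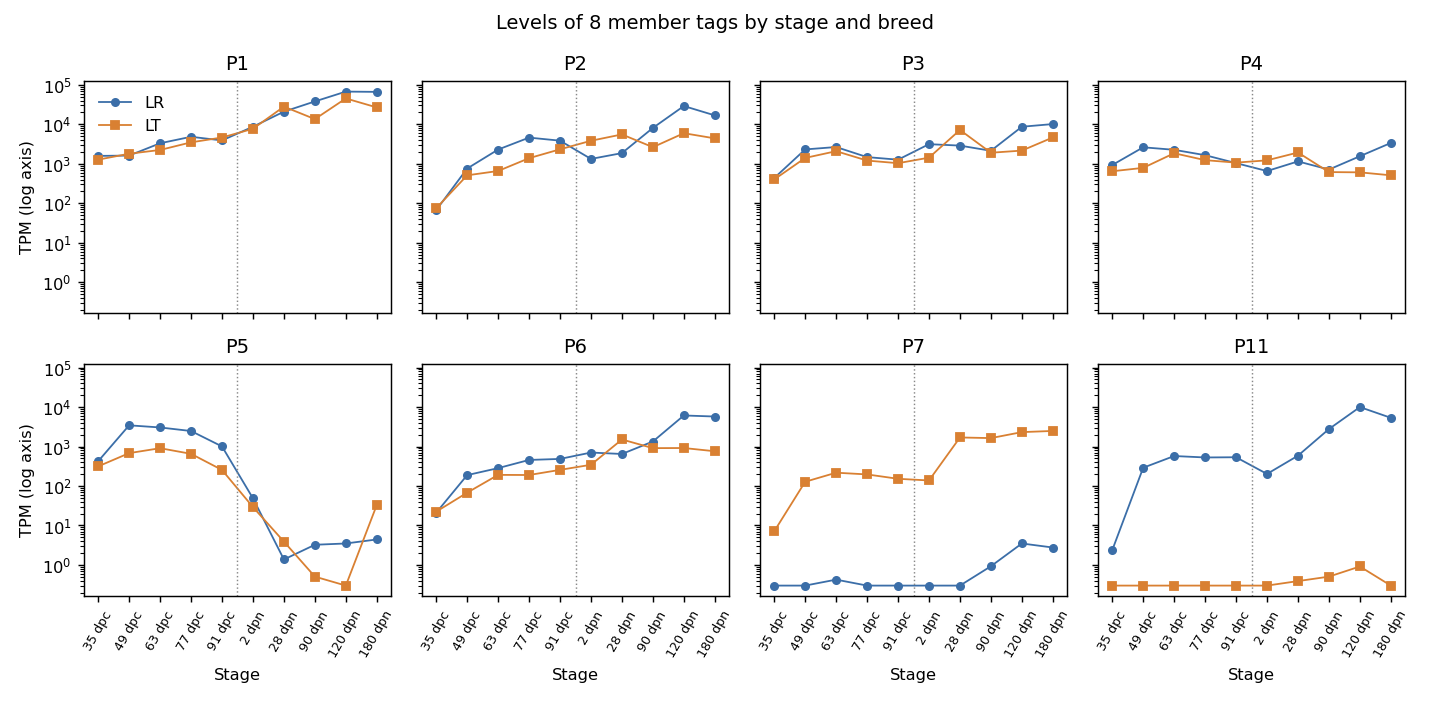
Levels of 8 members in TPM (log axis) by stage, LR as blue circles and LT as orange squares, 1 library per point, with values under 0.3 TPM drawn at 0.3 and birth marked by the dotted line. P1 and P6 climb in both breeds, though not at every step. P2 climbs from 35 dpc in both breeds, but in LR it falls from 3851 TPM at 91 dpc to 1328 TPM at 2 dpn. P5 falls from a highest value of 3440 TPM before birth to 48.8 TPM or less after it, and P7 and P11 are each found almost wholly in one breed.

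Between the breeds, LR had the larger share at all 5 prenatal stages. The LR minus LT difference was 0.168, 1.75, 1.39, 1.70 and 1.04 percentage points from 35 to 91 dpc, with a mean of 1.21 points. Swapping the breed labels within stages gave an exact permutation p = 0.0625, which no result of 5 pairs can fall below. At 2, 28 and 90 dpn the difference was -0.509, -2.80 and 3.35 points, so the breeds changed order from stage to stage (mean 0.0129 points, exact permutation p = 1). Over the 8 stages the mean was 0.760 points (exact permutation p = 0.289), LR being higher in 6 of 8.

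The prenatal difference was spread over many tags, and P5 was its largest single part. Of a mean difference of 12083 TPM, P5 made 1513 TPM (12.5%), P2 1324 TPM (10.96%), P4 581 TPM and P1 only 362 TPM (2.99%). At 90 dpn, by contrast, P1 made 24444 of 33457 TPM (73.1%). At 28 dpn LT was higher. The LR minus LT difference there was -27977 TPM, and P1, P3 and P2 made -7103, -4305 and -3681 TPM of it. Without P1, the LR minus LT difference was 1.17 points before birth and -0.598 points from 2 to 90 dpn, and these differed by -1.77 points (exact permutation p = 0.0357 over 56 assignments of the 8 stage differences, adjusted 0.107).

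Few of the members tested separated the breeds. Of 656 members that passed the filter for this comparison, edgeR with stage as a block called 8 higher in LT (1.22%, background 0.864% of 36939 tested tags) and 6 higher in LR (0.915%, background 0.966%). The median log2 difference, LT over LR, was -0.37 in the members and -0.0195 over all tested tags. At all 8 stages in the same direction, 12 members were higher in LR (1.83%, background 1.5%) and 15 in LT (2.29%, background 1.97%). Over the 5 prenatal stages alone, the calls were 16 higher in LT (background 3.49%) and 61 higher in LR (background 2.64%) among 801 members tested. No member was called in the test of whether the change between periods differed between the breeds (0 of 1148 tested by edgeR, background 0.00427% of 70280 tags called higher in LT). An unadjusted p under 0.05 in this edgeR test was seen in 293 of the 1148 members and in 9671 of the 70280 tags. The median log2 value of this term was 1.18 in the members and 0.11 over all tested tags. Positive values stand for a larger change, postnatal over prenatal, in LT than in LR.

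Of the 14 members called over 8 stages, 7 had no copy in one of the breeds. Such a tag could pass the low-count filter only through the breed in which it was found. P27, with 8551 copies in LR over the 8 stages and 0 in LT, stood at 208 to 455 TPM in LR before birth and at 77.7 to 221 TPM from 2 to 90 dpn. P68, with 3964 copies in LT and 0 in LR, stood at 42.8 to 413 TPM before birth and at 0 to 4.53 TPM after it. P113 (2326 copies in LR, 0 in LT) and P175 (0 and 1332) differ from each other at position 16 (T16C from P113 to P175). Added together, this pair stood at 67.5 to 125 TPM in LR and 35.2 to 62.9 TPM in LT before birth. P454, with 391 copies in LR and 17 in LT, has a partner at position 15 (A15G) with 0 copies in LR and 171 in LT over all 10 stages. P113 and P175 were each found in one breed alone, whereas LT carried both letters of the pair of P454, with 5 copies of P454 beside 7 of its partner at 35 dpc.

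The most abundant such pair was P7 and P11, which differ at position 5 (T5C from P7 to P11). P7 had 18720 copies in LT and 4 in LR over the 8 stages, and P11 had 16507 in LR and 4 in LT. P7 was called between the breeds, whereas P11 did not pass the low-count filter and was not tested between breeds or periods. P7 in LT stood at 7.11, 128, 217, 196 and 152 TPM from 35 to 91 dpc and at 138, 1694, 1633, 2314 and 2479 TPM from 2 to 180 dpn (log2 fold change between periods 4.08, edgeR adjusted p = 0.000592). P11 in LR stood at 2.36, 290, 574, 528 and 534 TPM before birth and at 202, 586 and 2766 TPM from 2 to 90 dpn. Taken as a sum, the pair was higher in LR at 6 of 8 stages, the exceptions being 35 dpc and 28 dpn, and the summed levels of the breeds overlapped.

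The rise in LR at 120 and 180 dpn is given as a description, because these 2 libraries were singled out with earlier results of the data known. No test of them against the other libraries was made, and the counts of calls between single libraries given at the end cover counting error only. How and when each library was prepared and sequenced is not given in the sources used here, and since each library is the only one of its kind, a separate preparation or run of these 2 cannot be told apart from their breed and stage. Compared with LT at the same stage, the share in LR was 2.31 times as high at 120 dpn (15.6% against 6.76%) and 2.90 times as high at 180 dpn (14.7% against 5.07%). Compared with the 8 other postnatal libraries, the members gained 103415 TPM in the mean of both libraries. Here 1222 members went up and 1196 went down, the latter by only -3340 TPM in all. P1 made a smaller part of this rise than of the net difference between the prenatal and postnatal means of the 18 libraries on library totals. Without P1 the share was 8.85% and 8.07% in these libraries, beside 1.68% to 3.93% in the other 18.

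As a share of clean tags, the rise was larger for the hexamer AATAAA than for its one-base variants. The ratio of the mean share in LR at 120 and 180 dpn to that in the other 8 postnatal libraries was 3.15 for AATAAA. Tags with ATTAAA but not AATAAA gave 1.31, the other 17 one-base variants 0.432 to 1.72 with a median of 1.02, and the reverse complement TTTATT 1.02. None of the variants reached the ratio of AATAAA. A few tags carried that ratio, and without the 10 tags with the largest rise it was 1.90. The leading tags of the variants were not taken out. From prenatal to postnatal libraries the ratio for AATAAA was 1.77, ATTAAA gave 0.602 and the other variants 0.392 to 1.74.

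Among members with a mean of at least 10 TPM over the 20 libraries, 130 of 324 were more than 2-fold higher in LR at 120 and 180 dpn than in the other postnatal libraries (40.1%, background 13.7% of 11745 tags), and 52 were more than 2-fold lower (16.05%, background 57.0%). Their median log2 ratio was 0.77, where that of all tags at this level was -0.71. The mean used for this cut includes the 2 late LR libraries, for members and background alike, so some tags passed through their late values. P684, for example, had means of 0.522 TPM before birth and 5.80 TPM in the other postnatal libraries, but 340 TPM in the late LR ones. The other postnatal libraries include those of LT, so these ratios also hold differences between the breeds. For ATTAAA, 25 of 105 tags were more than 2-fold higher (23.8%, median log2 ratio 0.23), and for TTTATT 34 of 178 (19.1%, median log2 ratio -0.29). Over members of any level, 344 were higher in both late LR libraries than in each of the other 18 (13.2%, background 3.34%) and 74 were lower than in each (2.84%, background 8.33%). Of the 344, 157 lay 1 base away from a far more abundant tag. Leaving such neighbours out, 187 of 2211 members remained (8.46%), against 2.72% of all tags that were no neighbours.

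**Figure D3:**
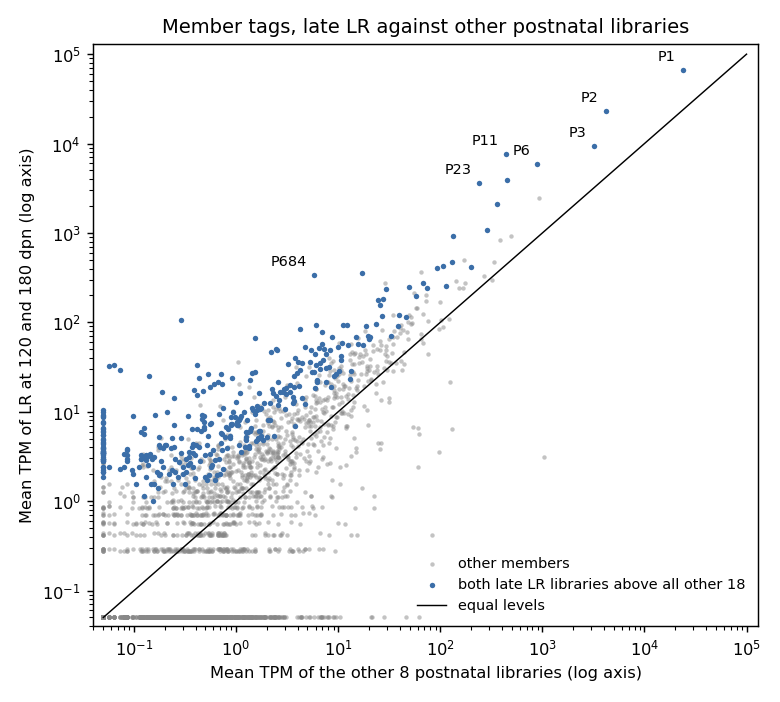
Mean level of each of the 2603 members in LR at 120 and 180 dpn against its mean in the other 8 postnatal libraries, both in TPM on log axes, with means under 0.05 TPM drawn at 0.05. Blue points are the 344 members for which both late LR libraries lay above all other 18 libraries, and the line marks equal levels. P1, P2, P3, P6, P11 and P23 lie above the line, and P684 lies well above it with a low level in the other libraries. P7 lies far below it with 1032 TPM against 3.13 TPM, but P7 is the LT form of a pair, so this mixes the breeds. In LR from 2 to 90 dpn P7 stood at 0 to 0.927 TPM.

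A handful of tags carried the rise. P1 and P2 together reached 50% of the upward change, and 24 tags reached 90%. P1 rose to 67391 and 66315 TPM, 43237 TPM above the other postnatal mean, which was 41.8% of the whole rise. It was 1.49 times the LT level at 120 dpn and 2.48 times at 180 dpn. P2 rose to 29036 and 16836 TPM, 18.1% of the rise, and the highest of the other 18 libraries had 8104 TPM. P1 thus gave the largest part in TPM, while its fold increase was among the smaller ones.

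P11 was the next, at 9971 and 5332 TPM (6.97% of the rise). Since P11 is the LR form of a pair, its ratio to the other postnatal libraries mixes the breeds. Added to P7, the pair stood at 9974 and 5334 TPM in LR and at 2315 and 2479 TPM in LT at 120 and 180 dpn, ratios of 4.31 and 2.15. P3 rose to 8676 and 10143 TPM (6.02% of the rise), and P6 to 6111 and 5745 TPM (4.87%), which was 6.67 and 7.58 times the LT level of the same stage.

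The tags P23, P14, P12 and P20 had lower levels than P6 in the other postnatal libraries. P23 stood at 10.2 to 438 TPM in the other 18 libraries and at 3881 and 3303 TPM in the late LR libraries, 15.0 times the other postnatal mean and 13.9 times LT at each stage. P14 rose to 2069 and 5802 TPM, 8.65 times the other postnatal mean, and had the largest ratio between the late libraries among the 10. P12 rose to 2430.3 and 1838 TPM (5.88 times) and P20 to 1056 and 1114 TPM (3.79 times). In each of these the late LR libraries lay above all other 18.

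P4 was the exception among the 10. It stood at 1555 and 3374 TPM in LR at 120 and 180 dpn, and the first of these lay within its prenatal range. P8, P5 and P7, which belong to the most abundant members but not to these 10, did not rise above the other libraries. P8 stood at 468 and 473 TPM, inside its range in the other 18 libraries, and P5 at 3.50 and 4.42 TPM. Together the 10 tags made 88.4% of the rise. Without them the share of the remaining 2593 members was 2.37% and 2.72% in the late LR libraries, 1.90 times the mean of the other postnatal libraries (1.35% ± 0.436, SD, n = 8) but no higher than the highest prenatal one, 2.75% in LR at 49 dpc.

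**Figure D4:**
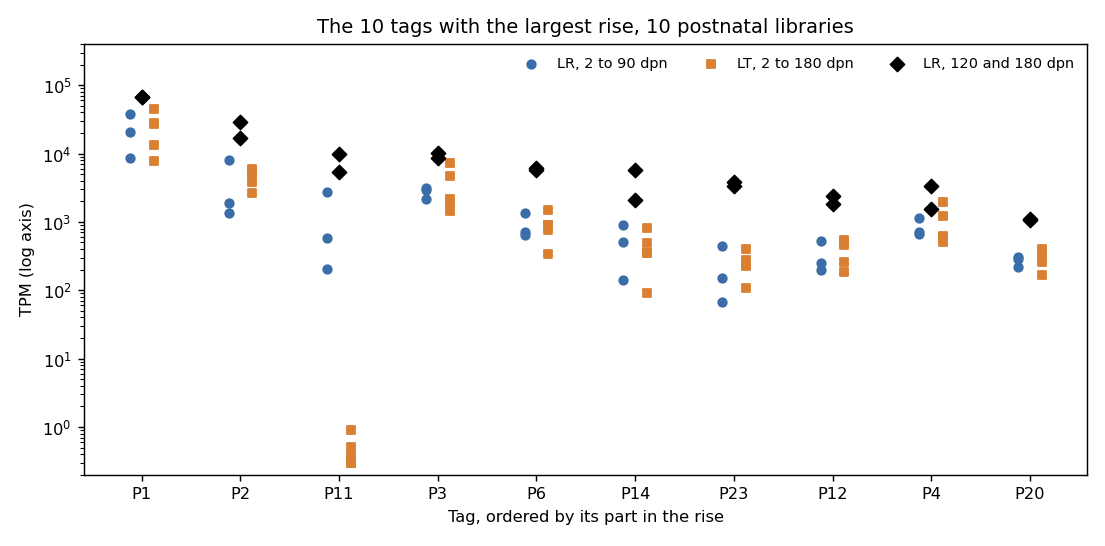
Levels in TPM (log axis) of the 10 members with the largest rise, ordered by their part in it, in the 10 postnatal libraries, 1 point per library, with values under 0.3 TPM drawn at 0.3. Black diamonds are LR at 120 and 180 dpn, blue circles LR from 2 to 90 dpn and orange squares LT from 2 to 180 dpn. The diamonds lie above all other points for each tag but P4, whose 120 dpn value of 1555 TPM lies below LT at 28 dpn with 1932 TPM.

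Against the mean of the other postnatal libraries, the rise was seen wherever in the tag the hexamer stood. The hexamer can start at 12 positions of the 17 bases, and at each of them the late LR libraries had a larger share than the other postnatal mean, from 1.34 times at position 4 to 5.19 times at position 3. P2 led position 3, where it made 67.7% of the copies. Position 8 held P1, which made 87.9% of the copies there, and the ratio was 2.79 with P1 and 2.24 without it. Positions 9 and 10, led by P11 and P14, gave 3.96 and 4.65. Against the prenatal mean the picture was mixed. At position 4 the late libraries had 0.171% and 0.185% against 0.198% before birth, and at position 6 0.133% and 0.141% against 0.144%. At position 2, LR at 120 dpn had 0.174% against 0.235%. Tags with G right after the hexamer were 600 of the 2603 members (23.1%), and they carried 11.1% of all clean tags in the late LR libraries against 3.31% in the other postnatal and 0.996% in the prenatal ones. P1 and P2 are both of this kind. Without P1 these values were 4.37%, 0.949% and 0.7096%, and without both 2.07%, 0.528% and 0.544%.

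**Figure D5:**
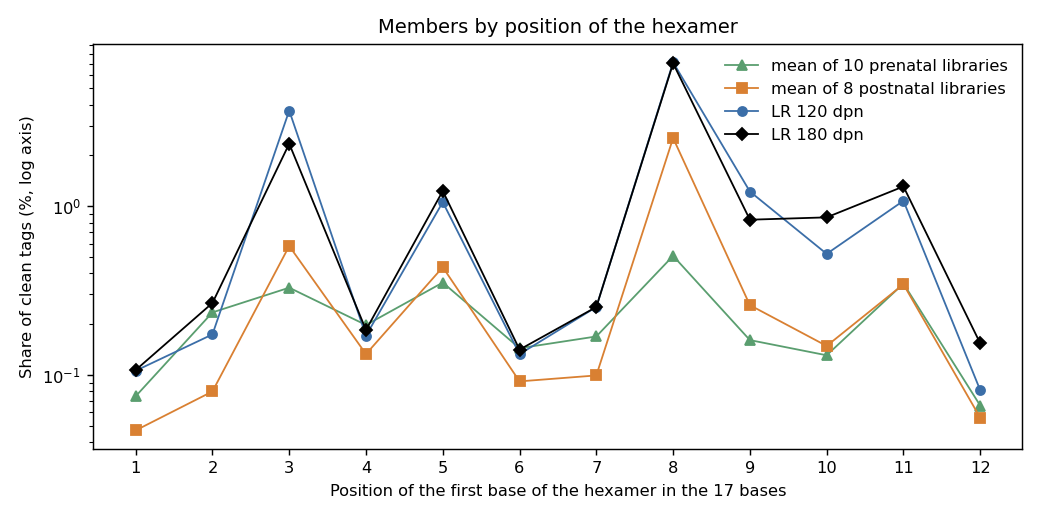
Share of clean tags (%, log axis) by the position, 1 to 12, at which the hexamer starts in the 17 bases, as means of the 10 prenatal and of the 8 other postnatal libraries and as single values for LR at 120 and 180 dpn. The late LR libraries lie above the other postnatal mean at every position, with the widest gap at position 3 and the narrowest at position 4.

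A last set of 5 tags had the largest ratios among the 146 members with at least 100 copies in each late LR library, and they were nearly absent elsewhere.
P684: catgtaccatcAATAAAttac
P2458: catgctcgttctgaAATAAAt
P2517: catgatgtcaaggaAATAAAt
P2562: catgaaAATAAAcatcctcgt
P2565: catgAATAAAgttgtcaacca
P684 had 1015 and 1392 copies in LR at 120 and 180 dpn and 0 to 36 in each other library. P2517 had 348 and 407 copies, with 5 in LR at 90 dpn and 0 elsewhere. P2458 had 114 and 122 copies and at most 4 elsewhere, P2562 had 107 and 100 with 3 in LT at 28 dpn, and P2565 had 121 and 109 with 2 in LT at 2 dpn.

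Each of the 5 resembled an abundant tag. P684 differs from P1 at 1 base (T14G, from P684 to P1), P2458 from P6 (T17G) and P2562 from P23 (T17G). P2565 equals P2 with the first 2 bases after CATG removed. P2517 equals in the same way an abundant tag that is no member, catgtgatgtcaaggaaataa, with 188392 copies. That tag ends 1 letter short of the hexamer, which the shift by 2 bases completes. All 3 are G-to-T changes relative to the abundant tag. Tags with a single G-to-T change from P1 had 0.439% and 0.580% of the copies of P1 in LR at 120 and 180 dpn, and 0% to 0.0547% in the other 18 libraries. For P6 these figures were 0.782% and 0.837% against 0% to 0.183%. The P1 figure is that of P684 alone, and P2458 made 114 of 164 and 122 of 174 such copies for P6. Both were picked by their late ratio, so these figures follow from that choice. For P2 and P3, whose G-to-T tags are not among the 5, the late figures were also higher. They were 0.184% and 0.186% against 0% to 0.116% for P2, and 1.43% and 1.29% against 0.0363% to 0.434% for P3. The sum of all tags 1 base away from P1, in contrast, was 3.52% and 3.55% of P1 in the late libraries, inside the range of 2.47% to 5.99% in the other 18. The part of the 5 tags in the total rise was small, 0.323% for P684 and 0.0284% to 0.103% for the other 4.

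Exact binomial tests were made between single libraries. They compare 2 libraries and not 2 conditions, treat PCR copies as independent molecules and so cover counting error only, and their counts of calls are given as a description of these libraries. Calls needed p below 0.009, a false discovery rate below 0.02 and an absolute log2 ratio above 0.5. LR at 120 dpn against LT at 120 dpn gave 468 of 1744 members higher (26.8%, background 5.84%) and 95 lower (5.45%, background 10.7%). At 180 dpn the same comparison gave 543 of 1823 higher (29.8%, background 6.0%) and 99 lower (5.43%, background 12.1%). LR at 120 dpn against LR at 90 dpn gave 338 of 1576 higher (21.4%, background 4.77%) and 73 lower (4.63%, background 10.1%). Among tags of at least 10 TPM on average the shares of members called higher were 55.6%, 58.9% and 49.4%, with backgrounds of 22.9%, 20.4% and 19.1%. This average is over all 20 libraries, so here too tags could pass through their late LR values. When edgeR's exact test was given a biological coefficient of variation of 0.4, it called 96, 154 and 56 members higher (backgrounds 0.978%, 1.57% and 0.535%). The near absence of tags with another CATG and the larger share of G-to-T neighbours of P1, P2, P3 and P6 moved with the rise in the late LR libraries. Their part in it was not tested.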

How the data were processed

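Tags of 21 bases, CATG and 17 more, were sequenced from 20 pools of longissimus muscle RNA, 3 animals each. The authors removed adaptor-only, low-quality and one-copy tags and deposited raw counts of the distinct clean tags of each library. Beside them the authors deposited TPM, the count for every 1000000 clean tags, which equalled count over total in every line. The counts were used throughout. The members and lists were chosen with earlier results of these data known. Tags were not matched to genes, as no transcript sequences were used here, and the tags carry no coordinates.

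Shares of clean tags were compared with 2-sided exact permutation tests over libraries, or with breed labels swapped within stages. Counts of all tags with at least 20 copies were tested with edgeR 4.0.16 (quasi-likelihood test, TMM, its low-count filter, Benjamini-Hochberg adjustment, adjusted p below 0.05) in R 4.3.3. Single libraries were compared with an exact binomial test, 0.01 TPM standing in for 0. Named tags were the 8 most abundant, the 3 largest called changes in each direction between periods without overlap and between breeds with the same direction in all 8 stages, the 10 largest rises and the 5 largest ratios in LR at 120 and 180 dpn. The edgeR and binomial scripts were tested on simulated data. Alternatives were other minima, scalings and filters, DESeq2 1.42.0, ATTAAA added, neighbours left out and each library or stage left out. Shares were computed in Python 3.11.15 (pandas 2.3.3, numpy 2.4.6, scipy 1.17.1), and figures drawn with matplotlib 3.10.9.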

Additional observations from a re-analysis of the deposited data

Results flagged for a closer look

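In groups of 4 to 10 libraries of a breed and period, a library that stood far from the rest of its group by Dixon's ratio was noted. This was the case in 13 of 124 groups examined, and chance alone marks about 1 in 20. In LR before birth, 35 dpc had the lowest share of members among distinct tags (0.787%, others 1.10% to 1.16%), the lowest P20 (54.8 TPM, others 143 to 149 TPM) and the highest P221 (122 TPM, others 2.02 to 23.6 TPM). In LR after birth, P5 was highest at 2 dpn (48.8 TPM, others 1.38 to 4.42 TPM) and P454 at 180 dpn (10.8 TPM, others 3.21 to 4.81 TPM). In LT after birth, P8 was highest at 2 dpn (895 TPM, others 165 to 373 TPM).

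P27, which otherwise was found in LR alone, stood at 10.9 TPM (32 copies) in LT at 180 dpn and at 0 in the other 9 LT libraries. The same library held P5 at 33.1 TPM. The remaining cases were tags seen in 1 library of a group and at 0 in the rest, each at or below the level of 3 counts: P7 in LR at 63 dpc (0.425 TPM), P2458 in LR at 77 dpc (0.541 TPM), P221 and P454 in LT at 2 dpn (0.679 TPM each), P2562 in LT at 28 dpn (0.585 TPM) and P2565 in LT at 2 dpn (0.453 TPM).

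Without P1, the difference in share between the breeds was not the same in the periods. It was 1.17 points before birth and -0.598 points from 2 to 90 dpn, LR minus LT, a change of -1.77 points (exact permutation p = 0.0357, adjusted 0.107 over 27 tests). Tags with the hexamer but under 20 copies, which the comparisons did not use, made up 0.0155% to 0.129% of clean tags, with the highest share in LR at 2 dpn.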

How the results depend on the processing

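Of 172 recomputed summary values, 138 kept their direction and side of the threshold or moved little, and of 466 for single tags 452 did. Without P1 the difference between periods on library totals was 0.0184 points (exact permutation p = 0.957). The share among distinct tags rose after birth while the number found at 2000000 clean tags changed by -362, the opposite direction, since all distinct tags became fewer. Among the distinct tags of such a draw, a choice made once the data were known, the members' share differed by 0.182 points (exact permutation p = 0.102). Calls between periods (142 and 138) were 65 and 261 on library totals without TMM (backgrounds 9.43% and 41.6%). Without the low-count filter, which tests more tags, they were 357 and 474 of 2568 members (13.9% and 18.5%). All tags then gave 15070 and 36566 calls of 170249, so the members leaned less towards higher prenatal levels than all tags did. Calls between breeds (8 higher in LT, 6 in LR) were 12 and 19 with DESeq2 (1.83% and 2.90% of 656 members), beside 1035 and 819 of 36939 tags. Without the filter they were 54 and 44 of 2566 members (2.10% and 1.71%), beside 4031 and 2777 of 170196 tags. Over the prenatal stages alone they were 16 and 61 of 801 members (2.00% and 7.62%), with backgrounds of 3.49% and 2.64%. The share ratio of LR to LT was 2.28 at 120 dpn and 2.81 at 180 dpn with ATTAAA added, 2.29 and 2.87 without neighbours, 3.97 and 3.37 without P1, 2.25 and 2.83 without tags with a further CATG, and 2.39 and 3.47 on TMM library sizes. With an assumed coefficient of variation of 0.4 the calls between single libraries fell to 96 and 30, 154 and 28, and 56 and 13, higher and lower in the late LR library. Backgrounds of the calls higher were 0.978%, 1.57% and 0.535%, and none is given for the calls lower.

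With each library or stage left out in turn, the difference between periods ran from 1.81 to 2.36 points and that between breeds from 0.391 to 1.27 points, the last without 28 dpn (exact permutation p = 0.0469). The share among distinct tags differed by 0.161 to 0.262 points and passed the threshold without LR at 2 dpn (exact permutation p = 0.0167) or LT at 90 dpn (exact permutation p = 0.0223). Calls between periods ran from 121 to 156 and from 120 to 168, and calls between breeds from 7 to 8 in LT and from 3 to 13 in LR, with 3 without 49, 77 or 91 dpc and 13 without 28 dpn. Among the single tags, changes of sign were seen only in log2 values that had not been called: P3 between breeds (0.19 without the stage block), P4 between periods (-0.54 on library totals, -0.094 to 0.38 with a library left out) and P8 between periods (0.068 with LR at 120 and 180 dpn included, -0.32 to 0.13 with a library left out). The cause of these shifts was not tested. DESeq2 was not run for the interaction. Depth limits tags below 1.39 TPM, which 3 counts stand for in the smallest library.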

Other observations

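Some members were found in the late LR libraries alone. In all, 35 members (1.34%) had copies in LR at 120 or 180 dpn and in no other library, beside 0.198% of all tags with at least 20 copies. Both libraries held 1219 members (46.8%, all tags 21.8%), and 981 of the 2603 (37.7%, all tags 65.1%) were found in neither. These are counts with no test.

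The 3 members higher in every postnatal library that do not lie close to P1, chosen after their values had been seen, were P20, P99 and P401. Their log2 fold changes between periods were 2.51, 2.82 and 2.19 (edgeR adjusted p = 9.1e-06, 7.93e-07 and 7.23e-06). P20 rose further in LR at 120 and 180 dpn. P99, with a mean of 13.6 TPM before birth and 60.5 TPM in the 8 postnatal libraries, stood at a mean of 2.39 TPM in the late LR libraries. For P401 these means were 3.74, 10.4 and 2.42 TPM.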
